A study of Mus musculus with 12 samples.

Results

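The 9 genes described here encode the catalytic subunit of RNA polymerase II and regulators that act on it or on chromatin: Polr2a, Ccnk, Cdk12, Ncor1, Crebbp, Ep300, Kmt2a, Kmt2d and Hipk2. They were taken by symbol from both deposited count tables and joined by Ensembl identifier, 9 of 9 found among the 21976 genes that the tables share. They were selected on measured values of these same libraries, above all on Vehicle against HFD, so their values in that comparison are a description and support nothing by themselves. All 9 passed the filter on low counts in every comparison.

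RNA from skeletal muscle of C57BL/6N mice was sequenced in 12 libraries, 3 in each of 4 groups. Feeding started at 6 weeks of age and lasted 18 weeks. The PCN group ate the high-fat diet and received pregnenolone carbonitrile, a steroid that activates the pregnane X receptor in rodents, at 50 mg/kg into the peritoneum once daily for 4 days. The Vehicle group ate the same diet and received the carrier, 30% DMSO in corn oil, on the same 4 days. The HFD group ate the high-fat diet and the Chow group regular chow, and for neither do the labels give an injection. The muscle is not named, and nothing says that each library came from a separate mouse, so p-values measure the spread between these samples, which may be technical. PCN and Vehicle libraries stand in 1 table and HFD and Chow libraries in the other. Between an injected and an uninjected group, the injection and the table therefore cannot be told apart.

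RNA polymerase II transcribes protein-coding genes, and the tail of its largest subunit, the product of Polr2a, is phosphorylated as transcription proceeds. Cyclin K, from Ccnk, is the partner that activates the kinase CDK12, which phosphorylates that tail during elongation and is known for its part in keeping long genes and DNA repair genes expressed. CBP and p300, from Crebbp and Ep300, are histone acetyltransferases that serve many transcription factors as coactivators. KMT2A and KMT2D methylate histone H3 (the H3K4 mark), at promoters and enhancers. NCoR1 is a corepressor that joins nuclear receptors to a histone deacetylase, and in mouse muscle its loss is known to raise oxidative metabolism. HIPK2 is a nuclear kinase that phosphorylates transcription factors and coregulators.

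All 9 genes had a promoter window in the RefSeq table of build GRCm38.p6, reaching from 250 bases before to 50 bases after the annotated start. Polr2a, Ccnk and Hipk2 are shown because they were among the lowest in Vehicle relative to HFD, and Cdk12 because its level hardly differed although its protein works with cyclin K. The windows lie at chr11:69758584-69758883 on the minus strand (Polr2a), chr12:108179488-108179787 on the plus strand (Ccnk), chr11:98203055-98203354 on the plus strand (Cdk12) and chr6:38876141-38876440 on the minus strand (Hipk2). Each is printed 5′ to 3′ on the gene's strand, and capitals mark matches to the 6 motifs named next, on either strand.
Polr2a: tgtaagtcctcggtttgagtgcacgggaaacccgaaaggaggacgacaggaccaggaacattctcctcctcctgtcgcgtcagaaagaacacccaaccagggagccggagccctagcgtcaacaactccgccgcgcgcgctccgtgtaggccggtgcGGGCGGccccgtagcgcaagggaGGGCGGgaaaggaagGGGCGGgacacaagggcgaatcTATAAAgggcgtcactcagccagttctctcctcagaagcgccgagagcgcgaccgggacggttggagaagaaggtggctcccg
Ccnk: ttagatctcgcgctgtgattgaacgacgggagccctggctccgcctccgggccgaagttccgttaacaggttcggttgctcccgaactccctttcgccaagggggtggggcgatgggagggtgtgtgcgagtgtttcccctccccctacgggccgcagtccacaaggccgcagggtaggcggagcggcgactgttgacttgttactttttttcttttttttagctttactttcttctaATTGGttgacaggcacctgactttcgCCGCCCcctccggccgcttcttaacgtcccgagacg
Cdk12: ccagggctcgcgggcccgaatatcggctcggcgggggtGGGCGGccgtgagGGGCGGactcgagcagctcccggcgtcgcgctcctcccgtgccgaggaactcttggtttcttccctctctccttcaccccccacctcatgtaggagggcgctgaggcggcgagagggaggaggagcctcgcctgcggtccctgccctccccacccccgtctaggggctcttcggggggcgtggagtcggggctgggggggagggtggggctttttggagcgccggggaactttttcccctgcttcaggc
Hipk2: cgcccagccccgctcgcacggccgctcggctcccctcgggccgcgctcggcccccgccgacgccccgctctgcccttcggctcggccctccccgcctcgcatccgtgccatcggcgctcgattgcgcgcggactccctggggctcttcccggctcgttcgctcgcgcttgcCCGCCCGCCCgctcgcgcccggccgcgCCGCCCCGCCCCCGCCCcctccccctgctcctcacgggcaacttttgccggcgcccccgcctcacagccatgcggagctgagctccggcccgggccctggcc

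The motifs were the CCAAT box, the GC box (GGGCGG), the TATA box (TATAAA), the core of ETS sites (CGGAAG), the cAMP response element (TGACGTCA) and the site of NRF1 (GCGCNTGCG). Each was searched with its reverse complement, and adjoining GC box matches can overlap. The GC box was in all 9 windows, against 35.7% of 32851 windows in the table and 64.9% of the 9565 genes tested in Vehicle against HFD that had a window. TATAAA was only in that of Polr2a among the 9 genes, against 7.23% of the tested genes. CCAAT was only in that of Ccnk, as its reverse complement, against 38.5% of the tested genes, and the ETS core only in that of Ncor1, against 31.9%. The cAMP response element and the NRF1 site were in none of the 9 windows, against 3.31% and 14.2% of the tested genes. The 9 windows held 26 to 49 CpG dinucleotides, against a median of 21 over the tested genes, with Hipk2 (80.7% G and C) near the top and Ccnk (58.7%) at the bottom. Cdk12 and Ncor1 were not set apart from the other 7 genes by any motif that those 7 shared: the GC box was in all.

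Libraries held 12770308 to 19739226 counts. Genes of muscle fibres dominated all of them, with Ttn (titin) at 122000 to 150000 counts-per-million units (CPM) in PCN, 83300 to 133000 in Vehicle, 173000 to 239000 in HFD and 124000 to 188000 in Chow. Of the 15 fibre markers 14 were in both tables and none was at 0 throughout. Chow 19 stood apart from Chow 8 and Chow 17 and, in 7 of the 9 genes, near the HFD libraries. In these genes it goes against its label, and whether the label, the handling of the library or the animal differs cannot be told apart, so Chow means carry that doubt and comparisons with Chow are given with and without it. Levels below are CPM after TMM scaling of all 12 libraries, with the SD of 3 libraries. With 3 libraries a group, the smallest two-sided exact permutation p is 0.1, so tests come from edgeR's quasi-likelihood fit across all genes.

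Polr2a, the polymerase's largest subunit, is on chromosome 11 (GRCm38, 69733997 to 69758637, ENSMUSG00000005198). It had 35.9, 27.9 and 29.6 CPM in the PCN libraries 5, 11 and 27, and 27.4, 24.6 and 27.7 CPM in the Vehicle libraries 15, 23 and 55. It had 64.6, 60.0 and 45.3 CPM in HFD 4, 30 and 38, and 34.8, 26.1 and 61.6 CPM in Chow 8, 17 and 19. Every library of the injected groups lay below every HFD library, and Chow 19 lay within the HFD range while the other Chow libraries lay below it. The Vehicle level averaged 26.6 ± 1.7 CPM and the HFD level 56.7 ± 10.1 CPM, a log2 fold change of -1.10 ± 0.15 (SE), or 2.14-fold lower.

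Ccnk, cyclin K, lies on chromosome 12 (108179579 to 108203359, ENSMUSG00000021258). Its level was 22.6, 23.3 and 22.4 CPM in PCN and 23.3, 20.4 and 23.9 CPM in Vehicle, in the same library order as above. It was 63.6, 56.1 and 42.6 CPM in HFD and 21.0, 19.2 and 61.3 CPM in Chow. Of the 12 libraries, 8 lay between 19.2 and 23.9 CPM and the other 4, those of HFD and Chow 19, between 42.6 and 63.6 CPM, with nothing between. The log2 fold change of Vehicle minus HFD was -1.27 ± 0.16.

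Cdk12, on chromosome 11 (98203059 to 98278504, ENSMUSG00000003119), encodes the kinase that cyclin K activates. It had 25.9, 28.4 and 35.8 CPM in PCN, 33.6, 26.7 and 37.3 CPM in Vehicle, 31.9, 34.8 and 33.6 CPM in HFD and 28.3, 30.2 and 38.0 CPM in Chow. All 4 groups overlapped, and the log2 fold change of Vehicle minus HFD was -0.04 ± 0.14. Per kb of exon, the level of Ccnk divided by that of Cdk12 was 2.41 to 3.36 in PCN, 2.47 to 2.95 in Vehicle and 4.89 to 7.69 in HFD. In Chow the ratio was 2.86 in Chow 8, 2.46 in Chow 17 and 6.22 in Chow 19. The cyclin's transcript level thus differed between these libraries while that of its kinase kept 1 range.

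The coactivators Crebbp (chromosome 16, 4081328 to 4213997) and Ep300 (chromosome 15, 81585351 to 81652077) moved in step. Crebbp had 82.4, 66.2 and 96.5 CPM in PCN, 83.2, 66.8 and 102 CPM in Vehicle, 173, 163 and 127 CPM in HFD and 94.0, 76.8 and 160 CPM in Chow. Ep300 had 43.3, 29.9 and 44.8 CPM in PCN, 36.7, 28.3 and 55.3 CPM in Vehicle, 79.1, 76.3 and 62.6 CPM in HFD and 37.4, 34.3 and 73.9 CPM in Chow. For both, Vehicle lay below HFD without overlap, and Vehicle 55 was the highest of the injected libraries. The log2 fold changes of Vehicle minus HFD were -0.88 ± 0.18 for Crebbp and -0.86 ± 0.23 for Ep300. Per kb of exon, Crebbp stood at 1.95 to 2.65 times Ep300 over all 12 libraries, and the 4 groups overlapped in that ratio. A miRNA gene model lies within Ep300 on the same strand, and its reads could not be separated.

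The H3K4 methyltransferases differed in size of change. Kmt2d (chromosome 15, 98831669 to 98871204) had 99.2, 53.8 and 86.4 CPM in PCN, 74.5, 55.1 and 102 CPM in Vehicle, 232, 218 and 174 CPM in HFD and 84.0, 57.8 and 234 CPM in Chow. Kmt2a (chromosome 9, 44803355 to 44881296) had 44.0, 30.6 and 46.5 CPM in PCN, 33.3, 29.2 and 55.9 CPM in Vehicle, 78.1, 76.5 and 59.2 CPM in HFD and 38.0, 37.9 and 75.5 CPM in Chow. In Kmt2a, Vehicle 55 (55.9 CPM) came nearest to HFD 38 (59.2 CPM), the narrowest gap in CPM among the 7 genes whose Vehicle and HFD groups did not overlap. The log2 fold change of Vehicle minus HFD was -1.43 ± 0.22 for Kmt2d and -0.85 ± 0.25 for Kmt2a. Per kb, Kmt2d over Kmt2a was 1.47 to 1.88 in PCN, 1.53 to 1.87 in Vehicle, 2.38 to 2.48 in HFD, and 1.85, 1.27 and 2.59 in Chow 8, 17 and 19. An antisense gene model overlaps Kmt2a, and the strand setting of the counting is not given.

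Hipk2 (chromosome 6, 38694390 to 38876165) had the largest log2 fold change of the 9 genes in Vehicle minus HFD. It had 44.3, 36.4 and 36.1 CPM in PCN, 49.1, 41.5 and 73.6 CPM in Vehicle, 175, 165 and 135 CPM in HFD and 60.7, 48.7 and 180 CPM in Chow. Its Vehicle level averaged 54.8 ± 16.8 CPM and its HFD level 158 ± 21.2 CPM, a log2 fold change of -1.54 ± 0.22, or 2.9-fold lower. Per kb, Hipk2 over its relative Hipk1 was 0.639 to 0.686 in PCN, 0.691 to 1.01 in Vehicle, 1.43 to 1.89 in HFD, and 0.876, 0.747 and 2.0 in Chow 8, 17 and 19.

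Ncor1 (chromosome 11, 62316426 to 62458541) was the most abundant of the 9 per kb of exon, at 16.1 CPM per kb over the 12 libraries. It had 228, 162 and 224 CPM in PCN, 188, 169 and 264 CPM in Vehicle, 240, 232 and 210 CPM in HFD and 179, 171 and 212 CPM in Chow. The groups overlapped in every comparison, and Vehicle minus HFD was -0.14 ± 0.18 on the log2 scale. Pigl and Ttc19 overlap Ncor1 on the opposite strand, so part of its counts may be theirs.

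**Figure D1:**
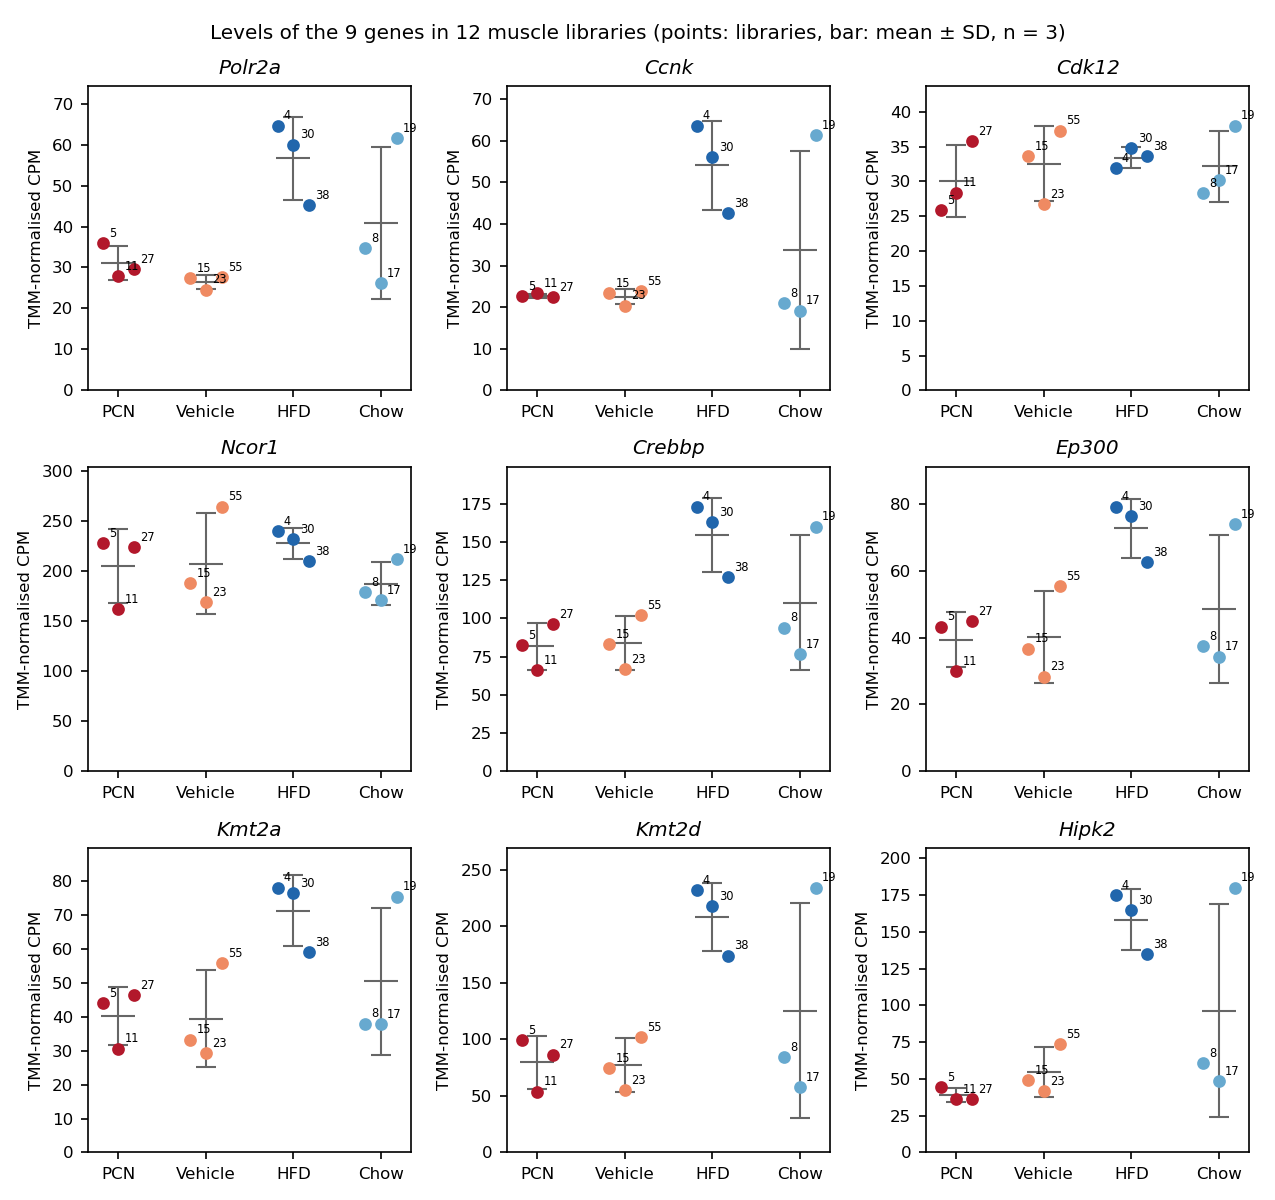
TMM-normalised CPM of the 9 genes in each library (points, numbered as in the labels), by group on the x axis, with the mean and SD of 3 libraries. In Ccnk 8 libraries lie at 19.2 to 23.9 CPM, and HFD with Chow 19 at 42.6 to 63.6 CPM; Cdk12 overlaps in all groups.

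On the log2 scale and over the 12 libraries, all 9 genes were above their own mean in HFD 4, HFD 30, HFD 38 and Chow 19, and all 9 below it in PCN 11, Vehicle 23, Chow 8 and Chow 17. Their mean centred profile was 0.40 to 0.75 in HFD and 0.72 in Chow 19. It was -0.56 to -0.21 in PCN, -0.59 to 0.04 in Vehicle, and -0.25 and -0.45 in Chow 8 and 17. Vehicle 55 was the highest of the injected libraries. The level of Cdk12 ran over a narrow range in the same libraries, so the shared direction rests mostly on the other genes.

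In Vehicle minus HFD, 9 of 9 genes had a negative log2 fold change, with a median of -0.88, beside a median of -0.001 over 12746 genes tested. The edgeR threshold (adjusted p of 0.05) was passed downwards by 5 of 9: Polr2a, Ccnk, Crebbp, Kmt2d and Hipk2. Of all genes, 0.989% were called lower and 0.526% higher. In 7 of 9 every Vehicle library lay below every HFD library, as it did in 11.1% of all genes. Nothing is read from these counts, since this comparison chose the genes. The count of 5 depended on single libraries: it was 7 without Vehicle 55, 3 without HFD 38, 1 without HFD 4 (Ccnk) and 0 without HFD 30, Vehicle 15 or Vehicle 23. It was also 0 when all 12 libraries shared 1 estimate of the spread, while the fold changes kept their sizes. In that fit without Chow 19 it was 3 (Polr2a, Ccnk and Hipk2). With all 6 libraries it was 7 with DESeq2, 6 with no filter and 4 with library totals.

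PCN minus HFD shares the HFD libraries with that comparison, so the values are given side by side only. They were -0.87 ± 0.18 for Polr2a, -1.25 ± 0.18 for Ccnk, -0.92 ± 0.20 for Crebbp, -0.89 ± 0.19 for Ep300, -0.82 ± 0.20 for Kmt2a, -1.38 ± 0.24 for Kmt2d and -2.03 ± 0.18 for Hipk2. Cdk12 (-0.16 ± 0.16) and Ncor1 (-0.15 ± 0.19) stayed near 0. Of the 9, 6 passed the threshold downwards, all but Cdk12, Ncor1 and Kmt2a, where 1.64% of 12686 genes were called lower and 1.3% higher. This count depended on single libraries too: it was 0 without HFD 4, when no gene at all passed, 1 (Hipk2) without HFD 30 or HFD 38, and 3 to 5 with a PCN library left out. With all 12 libraries in 1 fit it was 1, again Hipk2.

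PCN minus Vehicle asked what the pregnane X receptor agonist added to the injections. None of the 9 passed edgeR's threshold or had an unadjusted p under 0.05. None of 12833 genes passed either (0.0%), with 362 at an unadjusted p under 0.05, and DESeq2 called 0. Hipk2 had 38.9 ± 4.64 CPM in PCN and 54.8 ± 16.8 CPM in Vehicle, a log2 fold change of -0.49 ± 0.22 (edgeR adjusted p = 0.998). Polr2a had 31.1 ± 4.24 CPM in PCN and 26.6 ± 1.7 CPM in Vehicle, a log2 fold change of 0.23 ± 0.16, with the nearest PCN and Vehicle libraries at 27.9 and 27.7 CPM. The other 7 genes lay between -0.12 (Cdk12) and 0.04 (Kmt2d), with SE of 0.15 to 0.28. Since the -0.49 of Hipk2 did not pass, changes of that size or less could go undetected with these libraries.

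**Figure D2:**
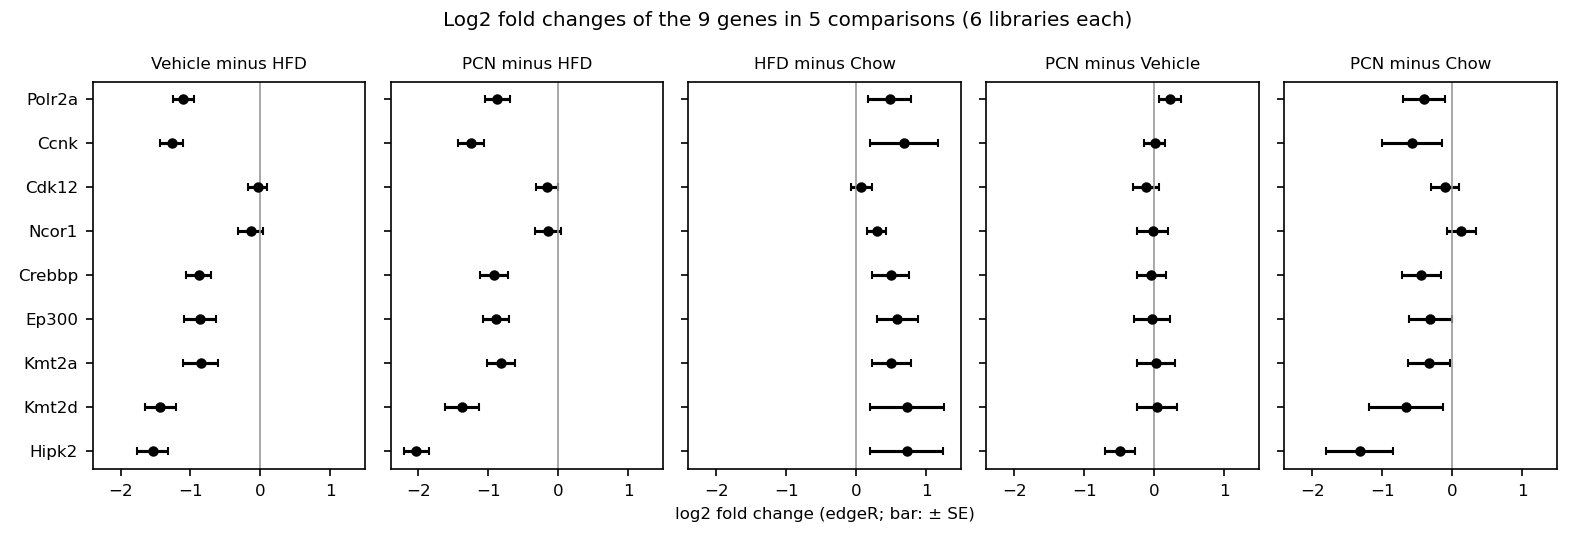
Log2 fold change of the 9 genes (x axis, point with SE) in 5 comparisons of 6 libraries each. In Vehicle minus HFD the values run from -1.54 (Hipk2) to -0.04 (Cdk12), and in PCN minus Vehicle all but Hipk2 (-0.49) and Polr2a (0.23) lie within 0.12 of 0.

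HFD minus Chow asked what the diet did. All 9 log2 fold changes were positive, from 0.07 ± 0.15 for Cdk12 to 0.73 ± 0.53 for Kmt2d, with a median of 0.50 beside 0.0 over all genes. None of the 9 passed edgeR's threshold (lowest adjusted p = 0.651), nor did any of 12686 genes (0.0%), with 977 at an unadjusted p under 0.05; DESeq2 called 44 genes and none of the 9. The SE of Ccnk, Kmt2d and Hipk2 were 0.49 to 0.53, with Chow 19 beside HFD in all 3. Without Chow 19, 7 of 9 passed upwards in HFD, where 1.45% of 12933 genes were called higher (187 genes, with 32 lower). Kmt2d was then at 1.57 ± 0.20 and Hipk2 at 1.55 ± 0.17, with Ccnk at 1.44 ± 0.18 (edgeR adjusted p = 0.0192 for each). Ep300 was at 1.03 ± 0.15, Kmt2a at 0.92 ± 0.15, Polr2a at 0.91 ± 0.19 and Crebbp at 0.87 ± 0.17, with adjusted p up to 0.0483. Ncor1 (0.39 ± 0.14, adjusted p = 0.184) and Cdk12 (0.21 ± 0.12, adjusted p = 0.437) did not pass. The HFD libraries are those that chose the genes, and Chow 19 was singled out by its values in these same genes. These calls are therefore not independent of either choice. With any other library left out instead, 0 of the 9 passed.

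**Figure D3:**
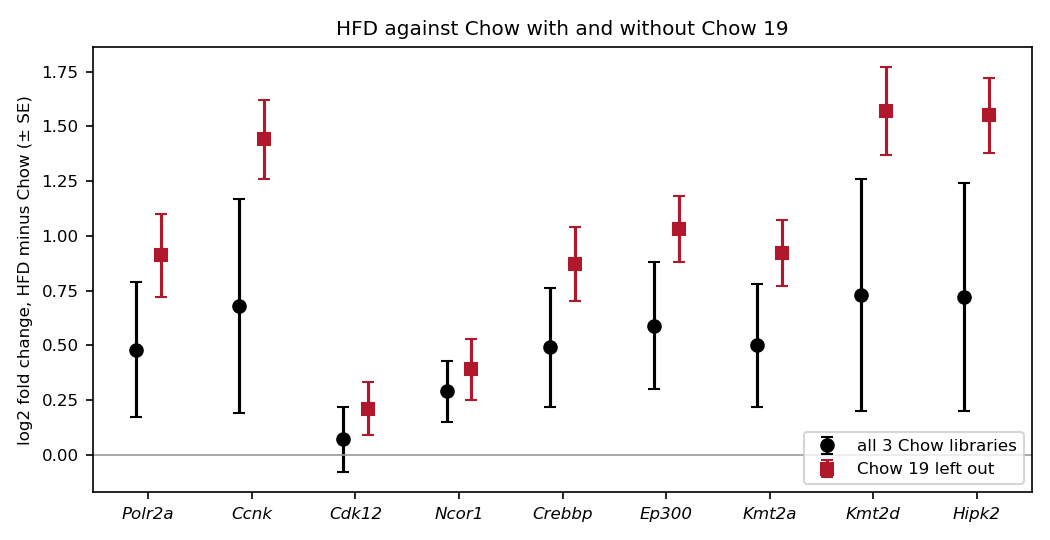
Log2 fold change of HFD minus Chow (y axis, with SE) for the 9 genes, with all 3 Chow libraries (circles) and with Chow 19 left out (squares). Kmt2d is at 0.73 with Chow 19 and at 1.57 without it.

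PCN minus Chow is the pair of groups that shares no library with Vehicle minus HFD, although diet, injection and table differ in it together. None of the 9 genes passed the threshold of edgeR or of DESeq2, and 1 (Hipk2) had an unadjusted p under 0.05. Among 12723 genes tested 1 did (0.00786%), with 1300 at an unadjusted p under 0.05 and 92 called by DESeq2. Of the 9, 8 were lower in PCN, with a median of -0.40 on the log2 scale. Hipk2 had 38.9 ± 4.64 CPM in PCN and 96.6 ± 72.7 CPM in Chow, a log2 fold change of -1.32 ± 0.48 (edgeR adjusted p = 0.442). Without Chow 19 its value was -0.49 ± 0.20 (adjusted p = 0.716). The direction of 6 genes turned without Chow 19: Polr2a was then at 0.03, Ccnk at 0.18, Cdk12 at 0.04, Ep300 at 0.13, Kmt2a at 0.09 and Kmt2d at 0.17, and the median at 0.09. Vehicle minus Chow, which shares the Vehicle libraries, called none of the 9 either and had none at an unadjusted p under 0.05, with a median of -0.40, or 0.13 without Chow 19. Over all genes only 5 of 12739 passed there (0.0392%), with 984 at an unadjusted p under 0.05, so nothing is read from the 0 of 9.

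The other genes of 12 lists of the transcription and chromatin machinery give the setting. Of 200 such genes besides the 9, 197 were tested in Vehicle minus HFD, and their median was -0.10 beside -0.001 over all genes. Of these, 2 passed edgeR's threshold upwards and 6 downwards (1.02% and 3.05%), beside 0.526% and 0.989% of all genes. An unadjusted p under 0.05 was found for 70 of the 197, and for 2273 of all 12746 genes (17.8%). Of the 6 that fell, 5 are described: Kdm6b, a demethylase of H3K27 (log2 fold change -1.10 ± 0.16), Ppargc1a, the coactivator PGC-1α that drives mitochondrial genes (-1.02 ± 0.19), Aff1 (-0.87 ± 0.14) and Ell2 (-0.80 ± 0.15), parts of the super elongation complex, and the remodeller Chd7 (-0.68 ± 0.13). Their adjusted p ran from 0.0231 to 0.0424. Ppargc1a had 39.3 ± 10.9 CPM in Vehicle and 79.5 ± 9.81 CPM in HFD. The pair that rose was Polr2c and Gps2. Gps2, a subunit of the NCoR1 corepressor complex, had 33.2 ± 4.4 CPM in Vehicle and 19.7 ± 2.15 CPM in HFD (0.75 ± 0.14, adjusted p = 0.0394). In HFD minus Chow, PCN minus Chow and PCN minus Vehicle, none of the genes tested from these lists passed edgeR's threshold, with 12, 19 and 0 at an unadjusted p under 0.05, and DESeq2 called none of them. In PCN minus HFD 9 of 197 fell and 3 rose (4.57% and 1.52%), beside 1.64% and 1.3% of all genes. The calls of these lists were lost in Vehicle minus HFD without HFD 30 or Vehicle 23, and in PCN minus HFD without HFD 4, since no gene then passed.

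Polr2a stood apart from the other subunit genes of its own enzyme. Of 13 subunit genes, 12 had a positive log2 fold change in Vehicle minus HFD and Polr2a alone a negative one, with a median of 0.44 over the 12. Polr2c rose (0.64 ± 0.12, edgeR adjusted p = 0.0363), with 39.3 ± 2.86 CPM in Vehicle and 25.1 ± 0.596 CPM in HFD. Polr2b, the second largest subunit, was at 0.04 ± 0.12, and Polr2j at 0.54 ± 0.12 (adjusted p = 0.0621). Per kb of exon, Polr2a over Polr2b was 0.290 to 0.393 in PCN, 0.295 to 0.345 in Vehicle, 0.583 to 0.749 in HFD, and 0.415, 0.288 and 0.939 in Chow 8, 17 and 19. The ratio to Polr2c was 0.431 to 0.553 in Vehicle and 1.33 to 1.97 in HFD. These ratios share the libraries that chose Polr2a and carry no test. The values of the 13 genes are given without centring on exon length, which moved with the log2 fold change (below).

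**Figure D4:**
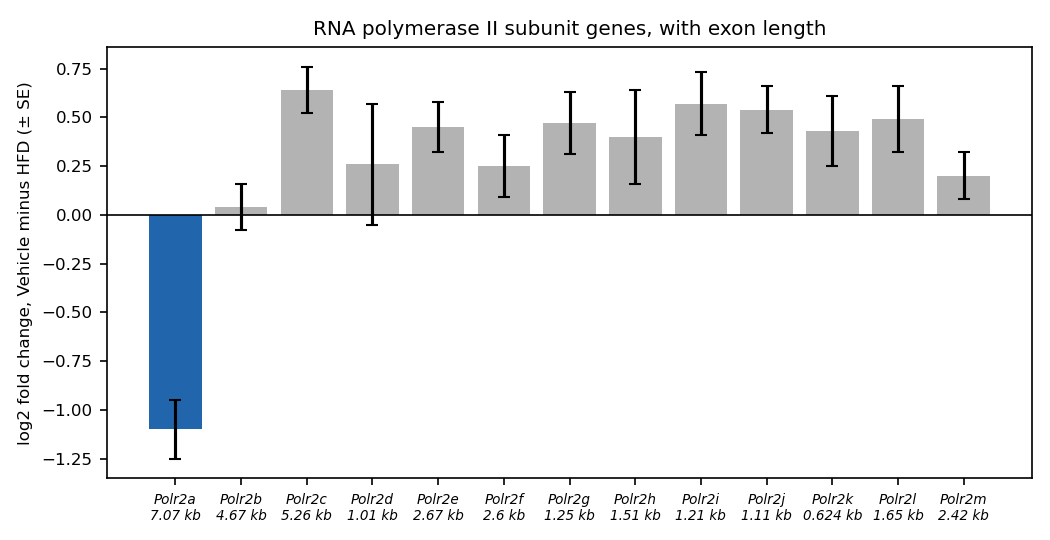
Log2 fold change of Vehicle minus HFD (y axis, bars with SE) for 13 RNA polymerase II subunit genes, with exon length in kb under each name. Polr2a (-1.10) is below 0 and the other 12 bars are above it, of which Polr2c (0.64) passed the threshold.

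In 2 families of the 9 genes, the relatives with the lowest p had negative values that did not pass. These were Kmt2c (-0.74 ± 0.21, edgeR adjusted p = 0.112) and Setd1b (-0.90 ± 0.27, 0.131) among the H3K4 methyltransferases, and Hipk1 (-0.51 ± 0.13, 0.0748) and Hipk3 (-0.35 ± 0.16, 0.293) among the HIPK kinases. The 9 genes left out, the H3K4 list had 10 negative and 6 positive values, with a median of -0.15. The corepressor list had 11 negative and 9 positive, with a median of -0.05. That of acetyltransferases and coactivators had 15 negative and 4 positive, with a median of -0.33. Of 16 histone demethylase genes 15 were negative, with a median of -0.36. Of 30 Mediator subunit genes 16 were positive and 14 negative, with a median of 0.05, and none passed. Med1 (-0.49 ± 0.13, adjusted p = 0.0872) and Med13l (-0.51 ± 0.13, 0.0885) came nearest. Among the transcriptional kinases and cyclins other than Ccnk and Cdk12, none of 15 passed, with a median of -0.06.

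Transcript length moved with these values. Median log2 fold changes of Vehicle minus HFD in 5 groups of genes by exon length were 0.18, 0.08, 0.01, -0.07 and -0.15, at median lengths of 1.7, 3.08, 4.48, 6.29 and 10.1 kb. Of the 9 genes, 7 were in the longest group, from Hipk2 (8.84 kb) to Kmt2d (19.9 kb), Polr2a (7.07 kb) was in the fourth and Ccnk (3.04 kb) in the second. After the median of their length group was subtracted, the median of the 9 genes was -0.74, with Ccnk at -1.35, Hipk2 at -1.39, Kmt2d at -1.28 and Polr2a at -1.03. Cdk12 (11.7 kb) and Ncor1 (12.8 kb) were then at 0.10 and 0.01. The mean exon length of the counted reads, with Ttn and mitochondrial genes left out, was 6.36 to 6.92 kb in PCN, 6.37 to 7.01 kb in Vehicle and 7.30 to 7.58 kb in HFD. It was 6.71 and 6.46 kb in Chow 8 and 17 and 7.50 kb in Chow 19, so it parted the libraries as did Polr2a, Ccnk, Crebbp, Ep300, Kmt2a, Kmt2d and Hipk2. With Ttn kept in, the libraries parted in the same way by a wider gap. The mean was then 24.77 to 26.73 kb in PCN, 18.13 to 25.35 kb in Vehicle and 30.11 to 33.36 kb in HFD. In Chow 8, 17 and 19 it was 23.79, 23.21 and 30.44 kb. The part of length in the result beyond this subtraction was not tested.

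**Figure D5:**
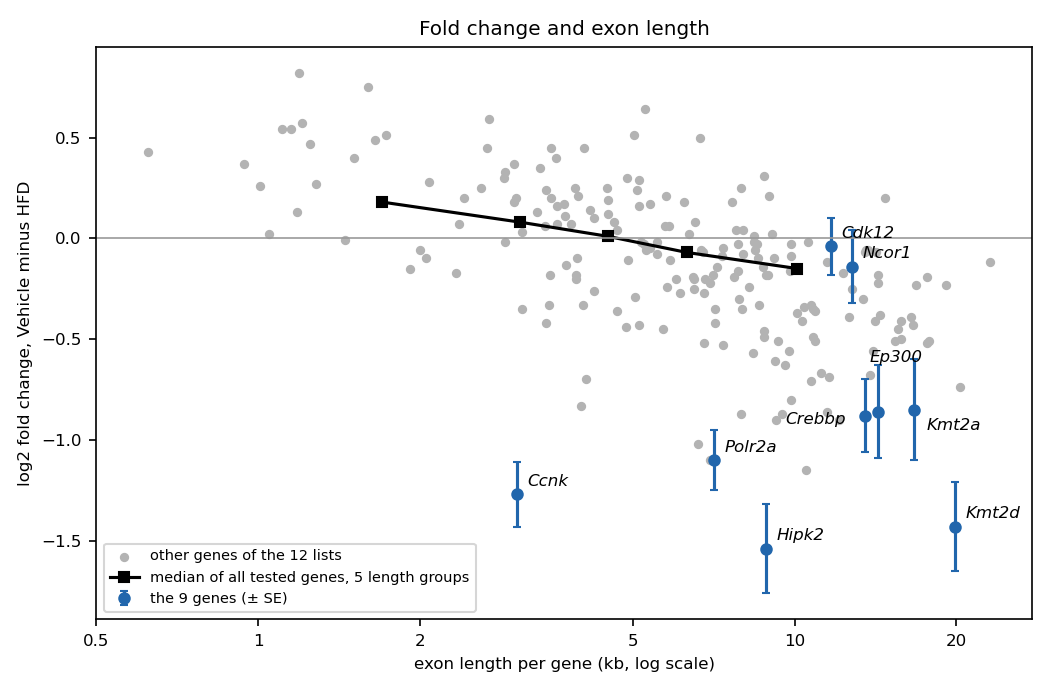
Log2 fold change of Vehicle minus HFD (y axis) against exon length (x axis, kb, log scale) for the 9 genes (with SE) and the other tested genes of the 12 lists, with the medians of all tested genes in 5 length groups (squares). The medians run from 0.18 to -0.15, and Ccnk (-1.27 at 3.04 kb) lies far below them while Cdk12 (-0.04 at 11.7 kb) lies within its SE of the median of its length group.

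Other RNA also differed between the libraries, but not always as the 9 genes did. Nuclear retained long noncoding RNAs, 10 of 10 in both tables, summed to 5270 to 6350 CPM in PCN, 4520 to 5930 in Vehicle, 5960 to 8650 in HFD, 5070 and 5560 in Chow 8 and 17 and 9020 in Chow 19. Of these, Malat1 had 2610 to 2780 CPM in PCN, 1950 to 3530 in Vehicle and 3250 to 4310 in HFD. The noncoding sums of PCN and HFD overlapped, as did Malat1 between Vehicle and HFD. Fibroblast and matrix genes, 10 of 10 present, summed to 437 to 657 CPM in PCN, 534 to 675 in Vehicle, 791 to 1420 in HFD and 809 to 1130 in Chow, where Chow 19 was lowest. Dividing cell genes, 6 of 6 present, summed to 1.1 to 1.58 CPM in Vehicle and 3.51 to 8.81 in HFD, but to 1.07 in Chow 19. These sums are near the floor: only 2 of the 6 passed the filter on low counts in Vehicle minus HFD, and 1 in PCN minus Vehicle. The sum of satellite cell genes was higher in Vehicle, at 41.1 to 43.8 CPM, than in HFD, at 30.6 to 32.8. Gene by gene they were mixed: of 5 tested in Vehicle minus HFD, 2 were higher and 3 lower. Their median log2 fold change was -0.17, and none passed. Adipocyte, macrophage, endothelial, red blood cell, nerve and slow fibre sums overlapped between Vehicle and HFD, the last over only 3 of 10 genes. Single genes could still lean to 1 side in Vehicle minus HFD, though none of these passed. Red blood cell genes were higher in 5 of 5 tested (median log2 fold change 1.07), nerve genes in 4 of 5 (0.40) and slow fibre genes in 2 of 3 (0.10). Macrophage genes were lower in 9 of 10 (-0.31), adipocyte genes in 8 of 10 (-0.20) and endothelial genes in 6 of 8 (-0.07). No marker of these lists was at 0 in all libraries. Their part in the result was not tested, and in whole muscle fewer cells of a type and less RNA per cell cannot be told apart.

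All other genes, those of the lists included, were ranked by how closely they followed the mean profile of the 9. Among 8168 genes with a mean of at least 5 CPM, the smallest root mean square differences on the log2 scale over 12 libraries were those of Hectd4 (0.0838), Brpf3 (0.0901), Zbtb20 (0.105), Arid1a (0.109) and Mef2d (0.116), against a median of 0.554. The mean profile does not stand for each of the 9 genes equally. Their own differences from the mean of the other 8 ran from 0.082 (Crebbp) to 0.487 (Hipk2), with Cdk12 at 0.457, Ncor1 at 0.424 and Kmt2d at 0.334. Hectd4 had 29.6 ± 2.52 CPM in PCN, 32.5 ± 8.79 in Vehicle, 54.9 ± 4.49 in HFD and 38.6 ± 15.9 in Chow. Mef2d, a transcription factor of muscle, had 81.2 ± 20.6 CPM in PCN, 88.6 ± 22.5 in Vehicle, 152 ± 27.3 in HFD and 109 ± 52.5 in Chow. The likeness includes the high value of Chow 19. Exon lengths were 16.4 kb for Hectd4, 8.65 kb for Brpf3, 30.7 kb for Zbtb20, 11.5 kb for Arid1a and 5.99 kb for Mef2d. The part of length in the likeness was not tested.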

How the data were processed

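RNA-seq counts from skeletal muscle, 12 libraries in 4 groups of 3, were analysed. The deposited files are 2 tables of whole-number counts by gene, not normalised, each with 6 libraries: HFD and Chow in one and PCN and Vehicle in the other. Per the submitters' processing notes, HISAT2, HTSeq, DESeq2 and the builds GRCm38 and mm10 were used. For these, version numbers and the strand setting were not given in the sources used here, so reads of overlapping genes cannot be separated.

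The tables (24093 and 24453 genes) were joined on 21976 shared Ensembl identifiers. The 6 libraries of a comparison were fitted alone in edgeR 4.0.16 (R 4.3.3): TMM scaling, the default filter (minimum count 10), robust quasi-likelihood F test, and Benjamini-Hochberg adjustment over all genes tested with a threshold of 0.05. In a comparison written A minus B, a positive log2 fold change means higher in A. Levels are TMM-scaled CPM (counts-per-million) values over 12 libraries. Exon lengths came from the mouse annotation of GRCm38. Its gene coordinates matched those of the tables for 98.0% of the genes of either table that it held. Promoter windows are those of RefSeq, GRCm38.p6. Replicates differed by 21.6 or more in chi-square per gene, so each library counted as 1 sample.

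The 9 genes, the lists and the tests were chosen with earlier results of these data known. Named genes are the 9, up to 3 further genes per list with the lowest p among those past the threshold in Vehicle minus HFD (or up to 2 that did not pass), and the 5 with the nearest profile (log2 of CPM plus 0.5, mean of at least 5 CPM). A gene that this rule takes is not reported here. Ratios between relatives, and Polr2b, Polr2j and the marker genes given with values, were added to describe these. Alternatives were DESeq2 1.42.0, RLE size factors, library totals, no filter, a minimum count of 50, all 12 libraries in 1 fit, centring on exon length, and each library left out in turn. Centring on length with GC content and a fit without Chow 19 were added after the data were seen. The edgeR and DESeq2 steps were tested on simulated counts.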

Additional observations from a re-analysis of the deposited data

How the results depend on the processing

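Genes called in Vehicle minus HFD numbered 193, against 587 with DESeq2, 571 with no filter, 44 with library totals, 0 with all 12 libraries in 1 fit and 38 in that fit without Chow 19, and 0 to 1180 with 1 library left out (0 without HFD 30 or Vehicle 23, 1180 without Vehicle 55). In PCN minus Chow 1 gene became 92 with DESeq2, 70 with no filter, 17 with 12 libraries in 1 fit, and 0 to 51 with 1 library left out. In HFD minus Chow 0 became 44 with DESeq2, 237 with no filter (Ep300 among them, adjusted p = 0.0384), and 0 to 219 with 1 left out. In PCN minus Vehicle 0 became 21 with no filter. The cause of these differences was not tested. The median of the 9 genes in Vehicle minus HFD was -0.67 to -0.89 in every setting with all libraries of both groups and -1.17 to -0.74 with 1 left out; in PCN minus Chow it was -0.64 to 0.09. Library totals moved the median of all genes by 0.16 in Vehicle minus HFD, where Cdk12 was then at 0.12 and Ncor1 at 0.03, and by 0.14 in PCN minus Chow, where Cdk12 was then at 0.04. With 1 library left out, values that changed sign ranged as follows. In Vehicle minus HFD, Cdk12 ran from -0.16 to 0.08, and in HFD minus Chow from -0.01 to 0.21. In PCN minus Chow, Polr2a ran from -0.64 to 0.03, Ccnk from -0.87 to 0.18, Cdk12 from -0.25 to 0.04, Ep300 from -0.52 to 0.13, Kmt2a from -0.51 to 0.09 and Kmt2d from -1.01 to 0.17. In PCN minus Vehicle, Ccnk ran from -0.05 to 0.05, Ncor1 from -0.14 to 0.18, Crebbp from -0.18 to 0.11, Ep300 from -0.23 to 0.26, Kmt2a from -0.15 to 0.35 and Kmt2d from -0.15 to 0.29. No paired analysis was possible because each library carries its own number and the groups share none. Counting error is small at 259 to 4887 counts per gene and library, so the spread between 3 libraries sets the precision.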
